A study of Mus musculus with 4 samples.

Results

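The GABA receptor subunits described here are 8 genes taken by symbol from a deposited table of 32681 genes: the GABA-A receptor genes Gabra2, Gabra3, Gabra4, Gabra5, Gabrb1 and Gabrb2, and both GABA-B receptor genes, Gabbr1 and Gabbr2. All 8 were present and all 8 passed the filter on low reads, as did 18110 genes in all. RNA was sequenced from 4 primary neuron cultures made from the neocortex of wild-type CD-1 mouse embryos at embryonic day 13, of which 2 received a control short hairpin RNA (shRNA) and 2 a hairpin targeting DcpS, an enzyme that hydrolyses the cap structure left when mRNA has been degraded. No genotype, drug or time point differed between the groups, and both DcpS libraries carry the same hairpin label in their titles. The comparison asked which transcripts change when DcpS is depleted. Whether the 2 cultures of a group were of separate origin is not said in the labels, and the p-values therefore cover only the variation among these samples, which may be technical.

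GABA-A receptors are chloride channels opened by the transmitter GABA and built from alpha, beta and usually gamma or delta subunits, and the alpha subunit sets where a receptor sits and how it responds. GABA-B receptors are slower, act through inhibitory G proteins and need both Gabbr1, which binds GABA, and Gabbr2, which carries the complex to the surface and couples it to the G protein. In the embryonic cortex GABA depolarises immature neurons, because the importer Slc12a2 keeps their chloride high, and receptors with Gabra2, Gabra3 or Gabra5 are the early forms.

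With DcpS shRNA, Gabrb2 transcripts fell to 57.6% of the control mean and Gabra5 transcripts rose to 154% of it. Gabra2 and Gabrb1 were lower by less, Gabbr2 was higher, and Gabra3, Gabra4 and Gabbr1 did not pass the test. Thus 5 of 8 members were called, 3 lower and 2 higher (limma, Benjamini-Hochberg adjusted p under 0.05 over all genes). Of all genes tested, 5.79% were called, 2.14% higher and 3.65% lower. The members were chosen with earlier results of these data known, so this share is a description. Their median log2 fold change was −0.03, beside 0.00074 over all genes tested. The number called fell to 2 with DESeq2, 3 without control 1, control 2 or DcpS shRNA 2, and 4 without DcpS shRNA 1 or with library-total scaling. Gabrb2 and Gabra5 were called in all 12 alternatives tried.

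The libraries held 17754768 to 21793685 reads, and Dcps itself was at 23.3% of the control mean with DcpS shRNA. Normalised read counts are reads divided by a size factor for each library. Projection neuron markers had summed normalised read counts of 82648 to 83536 under control shRNA, against 80748.5 to 81242 with DcpS shRNA. The cultures are labelled as neuronal, and this list also holds general neuronal genes, with Map2 and Tubb3 the most abundant. GABAergic interneuron markers summed to 1594 to 1641 under control shRNA and 1508 to 1595 with DcpS shRNA. Sums over lists of different genes do not compare numbers of cells. Gad2 was at 34.2 and 30.8 under control shRNA, against 34.5 and 26.8 with DcpS shRNA. Gad1, of the same list, was at 96.0 and 93.3 under control shRNA, against 62.7 and 65.9 with DcpS shRNA. Neither gene was called. Of the 14 tested genes of this list, 2 were called lower (Prox1 and Maf) and 1 higher (Npy). Meningeal fibroblast markers summed to 17781 and 19495 under control shRNA, against 11357 and 10825 under DcpS shRNA. Of these, 10 of 11 were called lower. The calls of Dcn and Lum ended with DESeq2 (Benjamini-Hochberg adjusted p 0.0966 and 0.269). The call of Lum also ended in limma without control 1, control 2 or DcpS shRNA 1. In limma that of Fbn1 ended with no filter (Benjamini-Hochberg adjusted p 0.0947) and with a replicate block (0.299). In a culture of mixed cells, fewer cells of a type and less RNA per cell cannot be told apart.

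The promoter windows of the most changed members, and of a pair of overlapping neighbours, are shown so that their start sites can be compared (RefSeq, GRCm38.p6; 250 bases before to 50 after the annotated start). Capitals mark the 50 transcribed bases and any match to TATAAA on either strand. RefSeq windows were found for 8 of 8 members. The window of Gabrb2, the gene with the largest fall, is the one farthest upstream of its 3 (chr11:42420190-42420489, plus strand), and the window of Gabra5, the gene with the largest rise, is on the minus strand (chr7:57510010-57510309). Gabra4 (chr5:71658259-71658558, minus strand) and Gabrb1 (chr5:71657671-71657970, plus strand) have starts 387 bases apart on opposite strands, and each is transcribed across the start of the other, so that their 5′ ends overlap.
Gabrb2: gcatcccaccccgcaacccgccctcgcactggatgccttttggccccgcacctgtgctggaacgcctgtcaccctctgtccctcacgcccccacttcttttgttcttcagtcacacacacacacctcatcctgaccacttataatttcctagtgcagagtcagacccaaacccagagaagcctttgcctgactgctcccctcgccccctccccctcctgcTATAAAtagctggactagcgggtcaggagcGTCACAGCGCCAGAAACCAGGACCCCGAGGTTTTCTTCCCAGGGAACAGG
Gabra5: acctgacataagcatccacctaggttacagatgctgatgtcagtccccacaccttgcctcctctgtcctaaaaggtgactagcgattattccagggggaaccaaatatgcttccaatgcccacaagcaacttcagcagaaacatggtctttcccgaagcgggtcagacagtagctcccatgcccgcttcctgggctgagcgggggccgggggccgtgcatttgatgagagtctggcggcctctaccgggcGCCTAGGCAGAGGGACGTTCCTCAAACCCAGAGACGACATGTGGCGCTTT
Gabra4: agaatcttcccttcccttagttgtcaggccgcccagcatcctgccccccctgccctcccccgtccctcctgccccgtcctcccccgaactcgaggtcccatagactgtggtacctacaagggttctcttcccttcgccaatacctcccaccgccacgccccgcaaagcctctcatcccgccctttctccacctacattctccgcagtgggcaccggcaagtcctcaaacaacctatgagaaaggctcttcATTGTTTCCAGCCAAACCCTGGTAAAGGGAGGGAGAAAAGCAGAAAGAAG
Gabrb1: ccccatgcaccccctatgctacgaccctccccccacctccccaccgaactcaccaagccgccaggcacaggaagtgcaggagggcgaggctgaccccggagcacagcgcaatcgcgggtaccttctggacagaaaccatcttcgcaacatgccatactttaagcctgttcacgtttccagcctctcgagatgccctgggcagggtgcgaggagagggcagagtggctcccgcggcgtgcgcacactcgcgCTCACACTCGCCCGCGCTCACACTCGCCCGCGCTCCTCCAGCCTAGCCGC

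In the Gabrb2 window shown, TATAAA begins 30 bases before the start, and the other windows of Gabrb2 do not hold it. Which start these cultures use was not tested. The 8 members have 12 windows in all. TATAAA was found on either strand in 3 of these 12, against 13.6% of 32851 promoter windows of the same length. The windows of Gabra3 overlap and share the same match, on the reverse strand, so that match was counted in each of them. Counted by gene, 2 of 8 members held it in at least 1 window, Gabrb2 and Gabra3, against 15.7% of 27025 genes. The cAMP response element TGACGTCA, the EGR word GCGTGGGCG and the E-box CACGTG were found in 0 of the 12 windows on either strand, and in 1.79%, 0.612% and 7.15% of all windows. A missing match says only that the letters are not in these bases.

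**Figure D1:**
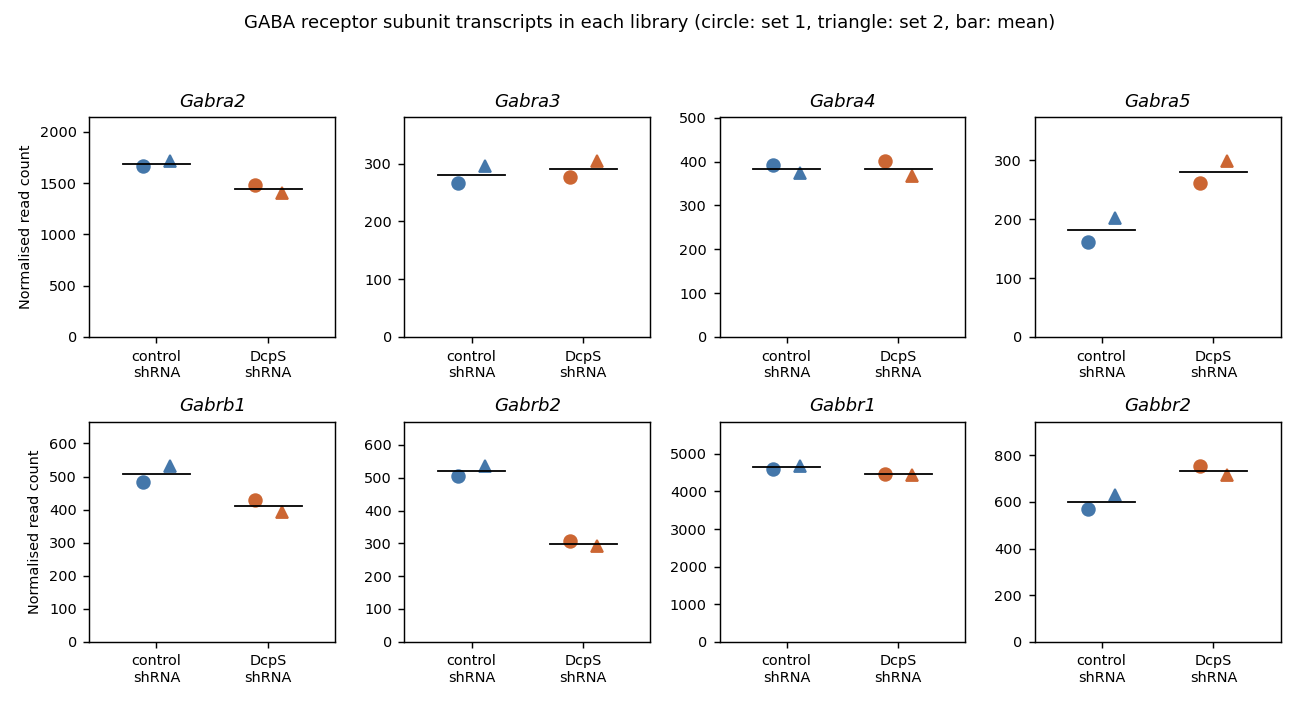
Normalised read count (vertical axes, from 0) of each subunit in each of the 4 libraries, with circles for set 1, triangles for set 2 and bars for group means. Gabrb2 sits at 505 and 535 under control shRNA, against 307 and 292 under DcpS shRNA, while the points of Gabra3 and Gabra4 interleave.

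Among the alpha subunits, which form the GABA binding site together with a beta subunit, Gabra2 was the most abundant and Gabra5 the one that rose. Gabra5 (chromosome 7, 57407672 to 57510059, minus strand, GRCm38, GENCODE M21), a subunit of mostly extrasynaptic receptors that carry tonic inhibition, had normalised read counts of 161 and 202 under control shRNA, against 262 and 298 under DcpS shRNA. Both DcpS shRNA libraries were above both controls. The mean rose from 181 ± 29.3 to 280.02 ± 26.0 (SD, n = 2 per group), a log2 fold change of 0.63 (SE 0.13; limma, Benjamini-Hochberg adjusted p 0.00642). Fold changes are on the log2(value + 1) scale. The estimate ran from 0.47 without control 1 to 0.80 without control 2, and DESeq2 also called it (Benjamini-Hochberg adjusted p 0.0306). Of the exon bases of Gabra5, 4.98% overlap those of the predicted gene Gm9962 on the other strand, and use of strand in the counting is not given in the sources used here.

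Gabra2 (chromosome 5, 70957597 to 71095849, minus strand), found at synapses and on the axon initial segment of cortical neurons, had normalised read counts of 1668 and 1712 under control shRNA, against 1484 and 1402 under DcpS shRNA. The groups did not overlap, although the fall was only to 85.4% of the control mean. The mean moved from 1690.05 ± 30.5 to 1443 ± 57.4 (SD, n = 2 per group), a log2 fold change of −0.23 (SE 0.06; limma, Benjamini-Hochberg adjusted p 0.0263). This call ended with DESeq2 (Benjamini-Hochberg adjusted p 0.134) and, in limma, without control 1 (0.0786), control 2 (0.198) or DcpS shRNA 2 (0.0533). All 12 alternatives gave a negative estimate, from −0.27 to −0.19.

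Gabra3 (X chromosome, 72432681 to 72656848, minus strand), another early subunit of the cortex, had normalised read counts of 266 and 295 under control shRNA, against 277 and 304 under DcpS shRNA, so the groups overlapped. Its log2 fold change was 0.05, with a 95% interval of −0.17 to 0.27 (limma, Benjamini-Hochberg adjusted p 0.858). Gabra4 (chromosome 5, 71569749 to 71658308, minus strand), which forms extrasynaptic receptors with Gabrd, had 392 and 373 under control shRNA, against 401 and 368 under DcpS shRNA. Again the groups overlapped, and the log2 fold change was 0.0040, with a 95% interval of −0.19 to 0.19 (limma, Benjamini-Hochberg adjusted p 0.988). For both genes a change within these intervals was not detectable with these libraries.

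The beta subunits complete the GABA binding site and anchor receptors at the membrane. Gabrb2 (chromosome 11, 42419757 to 42629028, plus strand), a main beta subunit of the mature brain, had normalised read counts of 505 and 535 under control shRNA, against 307 and 292 under DcpS shRNA. The gap between the groups was several times the spread within either. The group mean was 519.9 ± 21.8 under control shRNA and 299 ± 10.9 under DcpS shRNA (SD, n = 2 per group), a log2 fold change of −0.79 (SE 0.09; 95% interval −0.98 to −0.61; limma, Benjamini-Hochberg adjusted p 3.12e-05). By p it ranked number 57 among the 18110 genes. Across the 12 alternatives the estimate stayed between −0.84 and −0.75.

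Gabrb1 (chromosome 5, 71658113 to 72149037, plus strand), a beta subunit also found in glial cells, had normalised read counts of 485 and 531 under control shRNA, against 429.8 and 392 with DcpS shRNA. The groups did not overlap. The mean went from 508 ± 33.0 to 411 ± 26.5 (SD, n = 2 per group), a log2 fold change of −0.30 (SE 0.09; limma, Benjamini-Hochberg adjusted p 0.0497), just inside the threshold. The call ended with library-total scaling (limma, Benjamini-Hochberg adjusted p 0.0523), with DESeq2 (0.284), and in limma without control 2 (0.311) or DcpS shRNA 2 (0.160). All 12 alternatives gave a negative estimate, from −0.37 to −0.24. Of its exon bases, 0.332% overlap those of Gabra4 on the other strand.

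Of the GABA-B genes, Gabbr2 was called higher and Gabbr1 was not called. Gabbr2 (chromosome 4, 46662305 to 46991873, minus strand) had normalised read counts of 570.1 and 629 under control shRNA, against 753 and 715 under DcpS shRNA. Both DcpS shRNA libraries were above both controls. The mean went from 599 ± 41.4 to 734 ± 26.9 (SD, n = 2 per group), a log2 fold change of 0.29 (SE 0.07; limma, Benjamini-Hochberg adjusted p 0.0283). This call ended with DESeq2 (Benjamini-Hochberg adjusted p 0.183) and, in limma, without control 1 (0.238) or DcpS shRNA 1 (0.0552).

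Gabbr1 (chromosome 17, 37045966 to 37075067, plus strand), the GABA-binding partner, had normalised read counts of 4605 and 4672 under control shRNA, against 4458 and 4447 under DcpS shRNA. The groups did not overlap, but the difference was small: the log2 fold change was −0.06, with a 95% interval of −0.16 to 0.05 (limma, Benjamini-Hochberg adjusted p 0.583). Per kilobase of exon, the ratio of Gabbr1 to Gabbr2 was 6.96 and 6.40 under control shRNA, against 5.10 and 5.35 with DcpS shRNA. That ratio, which does not depend on library scaling, was 6.68 ± 0.393 under control shRNA, against 5.23 ± 0.181 with DcpS shRNA (SD, n = 2 per group; exact two-sided permutation p 0.333, the smallest that 2 against 2 can give).

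Levels of different genes are compared per kilobase of exon (normalised read count divided by the exon length of the gene in GENCODE M21). In the controls Gabbr1 stood highest at 597 ± 6.09 per kilobase (SD, n = 2), followed by Gabra2 at 221 ± 3.99. Gabbr2 at 89.6 ± 6.19 and Gabrb2 at 81.8 ± 3.42 came next, and differed by little more than their spread. Gabra3 at 71.5 ± 5.28, Gabra4 at 62.9 ± 2.22 and Gabra5 at 61.0 ± 9.86 were close, the last 2 well within their spread. Gabrb1 was lowest at 36.7 ± 2.38, and its annotated exons are the longest of the 8 at 13838 bases. With DcpS shRNA Gabra5 stood at 94.2 ± 8.73 and Gabrb2 at 47.1 ± 1.72 per kilobase (SD, n = 2), so their order reversed. Divided by the longest coding transcript instead, the control level of Gabrb2 was 130 ± 5.46 and that of Gabbr2 104 ± 7.20, so the order of these neighbours depends on the length used.

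**Figure D2:**
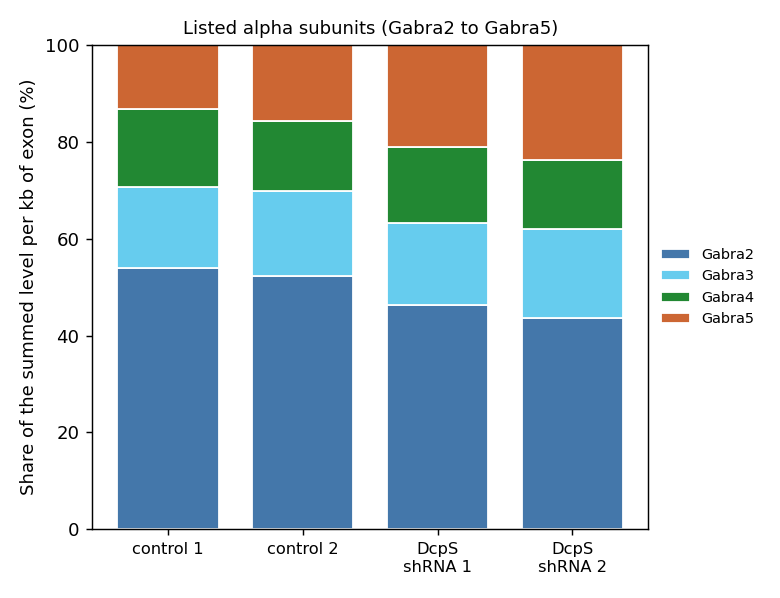
Share of each listed alpha subunit in their summed per-kilobase level (vertical axis, percent), with 1 stacked bar for each of the 4 libraries. The Gabra2 share is 54.0% and 52.3% under control shRNA, against 46.4% and 43.5% under DcpS shRNA, and the Gabra5 share is 13.3% and 15.8%, against 21.0% and 23.8%.

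The makeup of the RNA of the 4 listed alpha subunits was described within each library. These shares restate the levels given above and are not a further test. A rise in any subunit lowers the shares of the others. Gabra2 took 54.0% and 52.3% of their summed per-kilobase level under control shRNA, against 46.4% and 43.5% under DcpS shRNA. Gabra5 took 13.3% and 15.8% under control shRNA, against 21.0% and 23.8% under DcpS shRNA. The groups did not overlap for either subunit. The difference was −8.16 percentage points for Gabra2 and 7.80 for Gabra5, and each had an exact two-sided permutation p of 0.333, the smallest that this design allows. Gabra3 held 17.2% ± 0.571 and 17.6% ± 1.06, and Gabra4 15.1% ± 1.15 and 15.03% ± 0.992, for control and DcpS shRNA in turn (SD, n = 2 per group). With levels not divided by gene length the Gabra5 difference was 4.55 percentage points.

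Most GABA-A receptor genes lie in clusters, each with alpha, beta or gamma neighbours. In the chromosome 5 cluster, which spans 1.40 Mb, Gabra2 and Gabrb1 were called lower and Gabra4, between them, was not called, while their 95% intervals, −0.19 to 0.19 for Gabra4 and −0.49 to −0.12 for Gabrb1, overlap. Gabrg1, at the end of the same cluster, had normalised read counts of 41.8 and 52.3 under control shRNA, against 26.3 and 26.8 with DcpS shRNA, and its log2 fold change of −0.79 (SE 0.24) did not pass (limma, Benjamini-Hochberg adjusted p 0.0720). On chromosome 7, Gabra5 rose and its neighbour Gabrg3, at 56.1 and 55.4 under control shRNA, against 26.3 and 35.8 with DcpS shRNA, was called lower at −0.84 (SE 0.23; limma, Benjamini-Hochberg adjusted p 0.0455). The call of Gabrg3 ended in limma without control 1 (Benjamini-Hochberg adjusted p 0.151), without control 2 (0.141) and without DcpS shRNA 1 (0.158), and DESeq2 gave it no adjusted p. On the X chromosome none of Gabra3, Gabre and Gabrq was called. These differences between neighbours were not themselves tested.

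**Figure D3:**
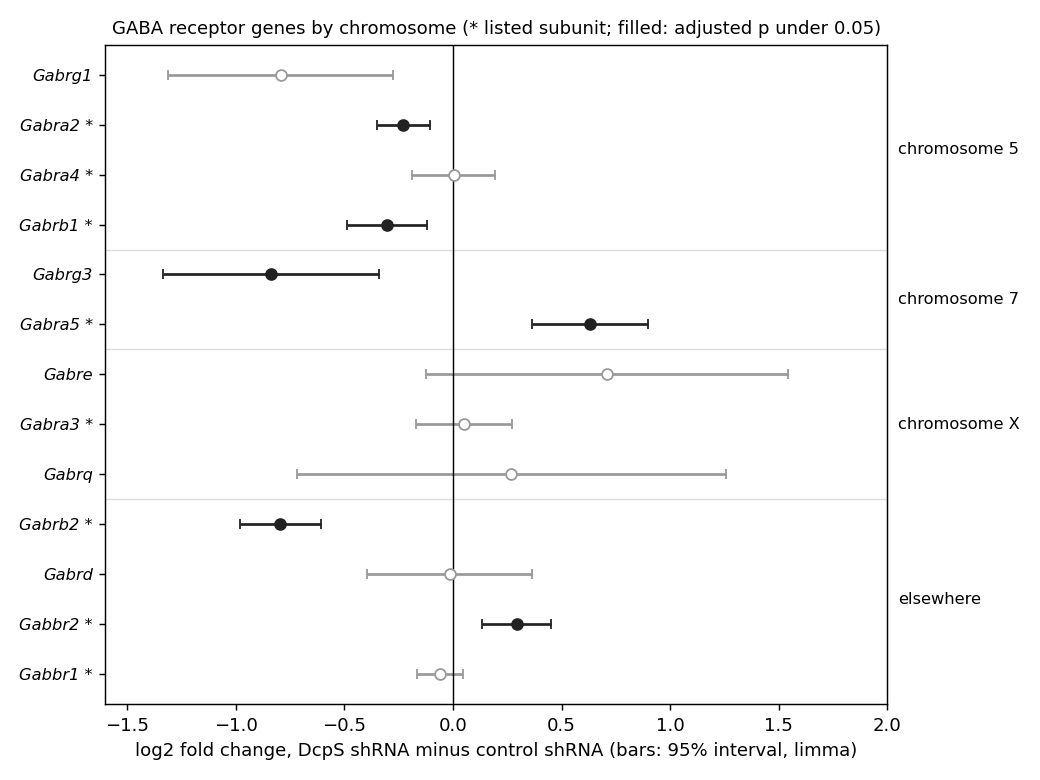
Log2 fold change with its 95% interval (horizontal axis, DcpS shRNA minus control shRNA, limma) for 13 GABA receptor genes, in order along chromosomes 5, 7 and X and then those elsewhere; filled points passed an adjusted p of 0.05 and asterisks mark the 8 listed subunits. Gabrb2 at −0.79 and Gabra5 at 0.63 lie on opposite sides of 0. By position along chromosome 5, Gabra4, with a change of 0.0040, is placed between Gabra2, at −0.23, and Gabrb1, at −0.30.

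Of the other GABA-A subunits, 11 of the 13 listed were in the table and 9 passed the filter, and of these only Gabrg3 was called. Of 20 genes for receptor scaffolding and trafficking, 1 was lower, 0 were higher and 19 did not pass. The one called was Trak1, an adaptor that links cargo to kinesin motors, which had normalised read counts of 4586 and 4700.0 under control shRNA, against 3350 and 3275 under DcpS shRNA (log2 fold change −0.49, SE 0.05; limma, Benjamini-Hochberg adjusted p 1.90e-05). The scaffold protein gephyrin, Gphn, had 1069 and 1121 under control shRNA, against 1009 and 1055 under DcpS shRNA and was not called (limma, Benjamini-Hochberg adjusted p 0.509). The most abundant of this list, Rdx, which anchors Gabra5 receptors to actin, and Ubqln1 were not called either, with log2 fold changes of −0.03 and 0.04.

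Among 16 tested partners and effectors of GABA-B receptors, 1 was higher, 1 was lower and 14 did not pass. Rgs4, which shortens signalling by inhibitory G proteins, rose from 437 and 399.96 in the controls to 538 and 637 with DcpS shRNA (log2 fold change 0.48, SE 0.09; limma, Benjamini-Hochberg adjusted p 0.00400). Gnai2, an inhibitory G protein alpha subunit, fell from 4635 and 4539 to 3552 and 3641 (log2 fold change −0.35, SE 0.05; limma, Benjamini-Hochberg adjusted p 0.000482). The most abundant genes of the list, the G protein subunits Gnb1 and Gnao1, had log2 fold changes of −0.02 and 0.02 and were not called.

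Of 10 tested genes of GABA synthesis, transport and breakdown, 1 was lower and 9 did not pass. Abat, the enzyme that degrades GABA, went from 514 and 552 in the controls to 418 and 421 with DcpS shRNA (log2 fold change −0.34, SE 0.08; limma, Benjamini-Hochberg adjusted p 0.0189), a call that ended with DESeq2 (0.148) and in limma without control 2 (0.142). Glul, which makes glutamine and was among the 2 most abundant of the list, was not called, with a log2 fold change of −0.07. Gad1, which makes GABA, had 96.0 and 93.3 under control shRNA, against 62.7 and 65.9 with DcpS shRNA, and its log2 fold change of −0.55 (SE 0.17) did not pass (limma, Benjamini-Hochberg adjusted p 0.0716).

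Of 9 chloride transport genes, 1 was lower, 0 were higher and 8 did not pass. Slc12a2, the chloride importer of immature neurons, fell from 1881 and 2088 in the controls to 1536 and 1546 with DcpS shRNA (log2 fold change −0.36, SE 0.06; limma, Benjamini-Hochberg adjusted p 0.00145). Slc12a5, the exporter that takes over as neurons mature, had 381 and 420.5 under control shRNA, against 447 and 419 under DcpS shRNA and overlapped between the groups (log2 fold change 0.11; limma, Benjamini-Hochberg adjusted p 0.552). The kinase Wnk1 and the chloride transporter Clcn3 were the most abundant and were not called.

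**Figure D4:**
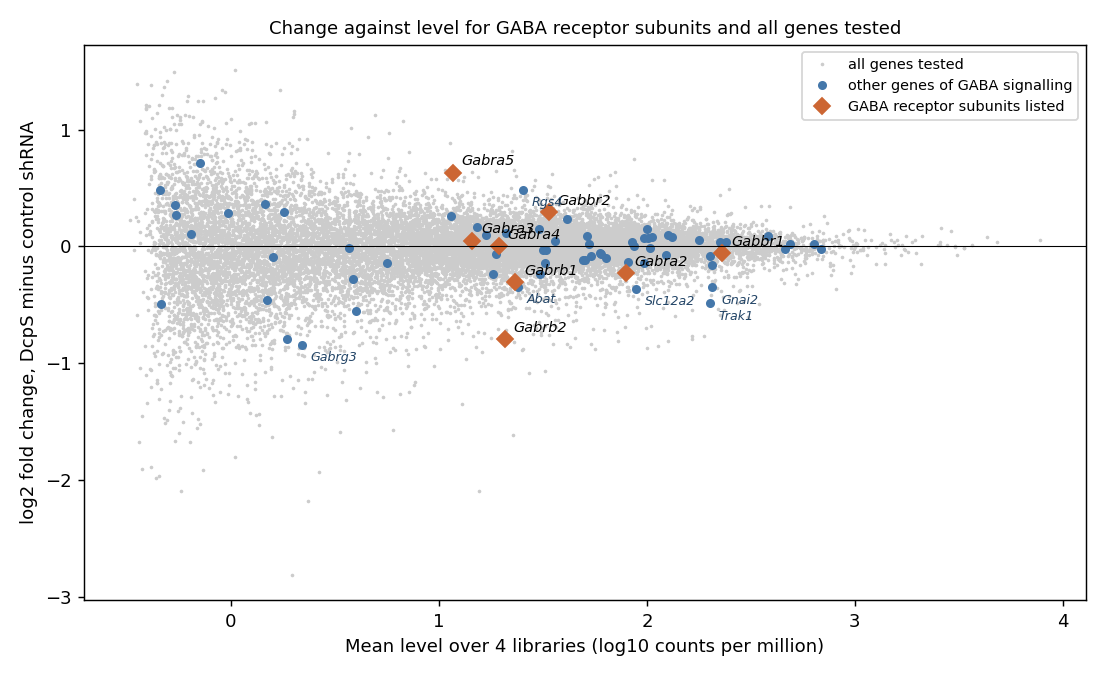
Log2 fold change (vertical axis) against mean level (horizontal axis, log10 CPM, reads scaled to library total) for all 18110 genes tested in grey, the other GABA signalling genes in blue and the 8 listed subunits as orange diamonds. Gabrb2 lies below and Gabra5 above most genes of their level, and the named blue points, from Gabrg3 to Trak1, are the pathway genes that were called.

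By the distance between log2 values centred on the control mean over the 4 libraries, each called member was compared with 73 other genes of these lists. Nearest to Gabrb2 were Gabrg1 (distance 0.18), Gabrg3 (0.37) and Gad1 (0.37), and nearest to Gabra5 were Gabrr2 (0.29), Rgs4 (0.39) and Gabre (0.51). Gabrr2 had 6 to 11 reads and Gabre 9 to 23 reads in a library, and neither was called, so that their profiles rest on few reads. Gabra2 lay closest to the inhibitory synapse adhesion gene Slitrk3 (0.07), then Gabrb1 (0.13) and Nlgn2 (0.13). Gabrb1 lay closest to Abat (0.12), Slc12a2 (0.13) and Gabra2 (0.13), and the 3 nearest to Gabbr2 included Glrb (0.22) and Iqsec3 (0.24). With 4 libraries these distances reflect mostly the difference between the groups.

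Several cell type markers moved with the same groups. Of 13 tested astrocyte markers 5 were called lower, namely Aqp4 (log2 fold change −1.13), Gfap (−0.91), Gja1 (−0.67), Slc4a4 (−0.53) and Sparcl1 (−0.45), and Aldoc higher (0.21), with a list median of −0.22 on the log2 scale and summed normalised read counts of 15807 and 15816 under control shRNA, against 14826 and 15027 under DcpS shRNA. Gabrb1 and Gabrg1 are also expressed by astrocytes, and the part of those cells in the falls of these genes was not tested. Of 14 tested interneuron markers, Prox1 and Maf were called lower and Npy higher, and the list's sums overlapped between the groups. Of the 13 genes of the projection neuron list, which includes general neuronal genes, Slc17a7 and Rbfox3 were called higher and Snap25 and Syt1 lower. Fibroblast markers had a list median of −0.77. Microglia markers were scarce and summed to 236 and 239 under control shRNA, against 213 and 236 under DcpS shRNA. Of 8 tested oligodendrocyte lineage markers, Pdgfra was called lower (log2 fold change −0.63) and Mbp higher (0.47), and Sox10 had at most 4 reads in any library. Of 7 endothelial markers 3 passed the filter, and Kdr, with 89 and 106 reads under control shRNA, against 64 and 50 under DcpS shRNA, was called lower (log2 fold change −0.74; limma, Benjamini-Hochberg adjusted p 0.0253). The endothelial list summed to 105 and 151 normalised reads under control shRNA, against 87.2 and 89.4 under DcpS shRNA, and Cldn5 had at most 2 reads in any library. The calls of Aqp4, Kdr, Mbp, Pdgfra, Prox1, Maf, Rbfox3 and Syt1 ended with DESeq2, which gave Npy no adjusted p. Without control 1, those of Aldoc, Mbp, Maf, Snap25 and Syt1 ended. Those of Aldoc, Gfap, Kdr, Maf, Rbfox3 and Syt1 ended without control 2. The call of Maf also ended without DcpS shRNA 1, and that of Mbp without DcpS shRNA 2. The part of these cells in the members' changes was not tested.

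The words ACGTGCA and CACGTGC were chosen by an earlier look at these data, so the matches given here are a description. Both words were absent from the annotated 3′ untranslated regions of 8 of 8 members (GENCODE M21). Of 13724 tested genes scanned, 9.48% hold at least 1 of the words in some annotated transcript. Trak1 holds a word and Gabrg3 does not.

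**Figure D5:**
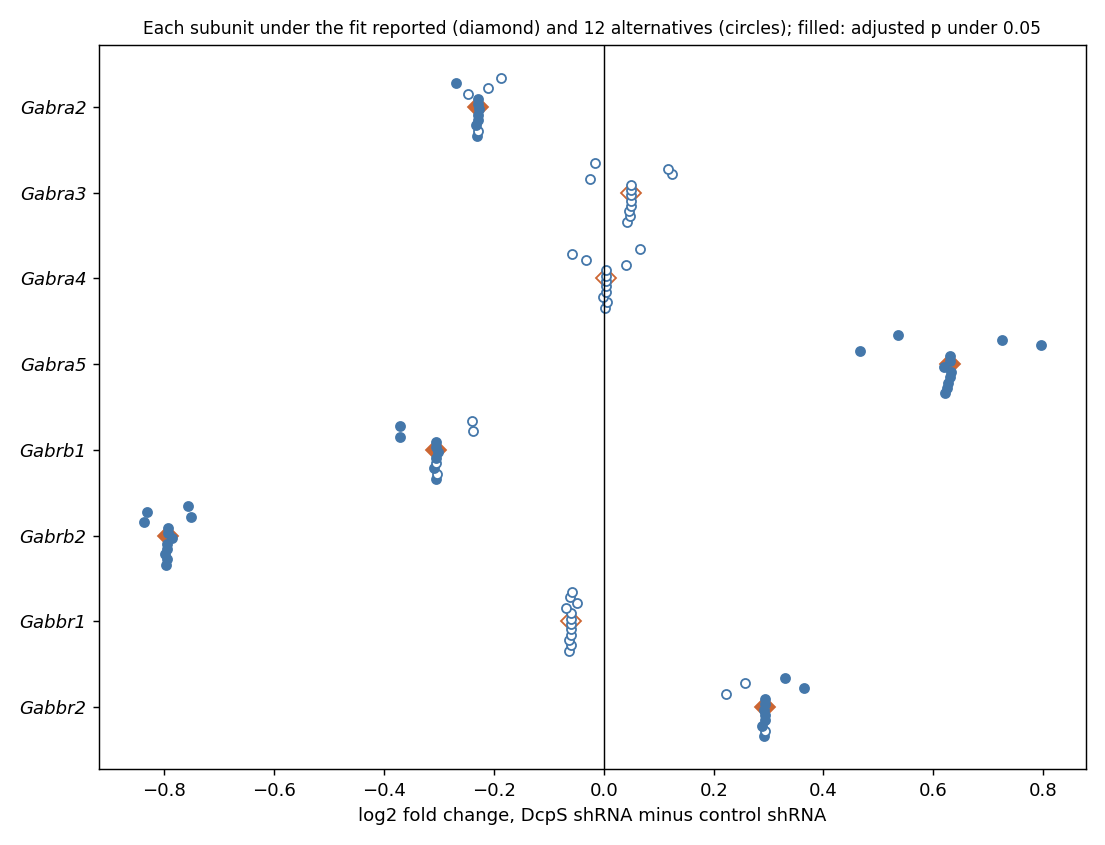
Log2 fold change (horizontal axis, DcpS shRNA minus control shRNA) of each subunit in the fit reported (diamond) and in 12 alternatives (circles), filled where the adjusted p was under 0.05. The circles of Gabrb2 (−0.84 to −0.75) and Gabra5 (0.47 to 0.80) are all filled, those of Gabra2, Gabrb1 and Gabbr2 are partly open, and those of Gabra3, Gabra4 and Gabbr1 are all open.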

How the data were processed

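RNA sequencing data of 4 libraries were used, 2 per group. The deposited table holds 1 column per library, and its values are a signal: read counts scaled by the authors with 1 size factor per library, seen because 100% of values in each column were whole multiples of the smallest positive value (tolerance 0.001). Per the submitters' processing notes the tools include HISAT2 2.2.0, SAMtools 1.3.1, Picard, featureCounts and DESeq2 and the build is GRCm38; annotation, strand setting and the treatment of reads that fit several genes are not given in the sources used.

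Genes passing edgeR's filterByExpr on the recovered whole reads (minimum count 10) were tested with limma 3.58.1 on log2(deposited value + 1), empirical Bayes moderated with a trend on level and robust to outlying variances, two-sided, with Benjamini-Hochberg adjustment over all 18110 genes; calls have an adjusted p under 0.05. Gene names are the table's own, and 31622 of 32681 symbols are in GENCODE M21, which gave positions and exon lengths. The script was tested on simulated data. The members and gene lists were chosen with earlier results of these data known. All members are named; other listed genes are named when called, with the 2 most abundant of each pathway list (Gphn, Gad1, Gad2, Gabrg1, Gabre, Gabrq and Slc12a5 were named outside this rule). Alternatives were edgeR 4.0.16 and DESeq2 1.42.0 on the recovered reads (edgeR called 1077 genes), other scalings, pseudocounts of 0.5 and 5, no filter, a replicate block and leaving out each library. A count of 0 allows up to 3 reads, 0.138 to 0.169 CPM here, for counting error only. Shares of alpha subunits were taken over the 4 listed ones, a narrower sum than planned and chosen after seeing the data, and some genes that the naming rule picks are not reported here.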

Additional observations from a re-analysis of the deposited data

How the results depend on the processing

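With DESeq2, 453 genes were called (141 higher and 312 lower with DcpS shRNA) in place of 1048 (387 and 661), and 2 members, 1 in each direction. Leaving out 1 library at a time gave 747 to 1745 called genes (277 to 637 higher, 470 to 1108 lower), the lowest without control 2 and the highest without DcpS shRNA 1, and 3 to 4 called members (1 to 2 higher, 1 to 3 lower). A fit with 1 library in a group assumes that it varies like the others. Set numbers are shared by the groups, but the correlation of same-numbered libraries' deviations was 0.0429, so they were not treated as pairs; with the replicate block 1626 genes were called, 646 of them higher, and the 5 members called did not change in number. Members near 0 changed sign: Gabra4 was −0.00051 with TMM scaling, −0.032 without control 2 and −0.058 without DcpS shRNA 1, and Gabra3 was −0.025 without control 1 and −0.017 without DcpS shRNA 2; without 1 library the highest values were 0.066 for Gabra4 and 0.13 for Gabra3. The cause of these shifts was not tested. Without 1 library, shares differed by −9.60 to −6.73 percentage points for Gabra2, 6.42 to 9.19 for Gabra5, −0.290 to 1.21 for Gabra3 and −0.910 to 0.713 for Gabra4, and the Gabbr1 to Gabbr2 ratio by −1.73 to −1.17. Not divided by length, the difference was 4.55 for Gabra5. Depth limits Gabre and Gabrq, which had 7 to 23 reads in a library.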

Other observations

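Glycine receptors share the scaffold gephyrin with GABA-A receptors, and of their 5 listed subunit genes 2 passed the filter. Glra2, the alpha subunit of embryonic neurons, had normalised read counts of 634 and 680 under control shRNA, against 649.6 and 638 under DcpS shRNA, and the groups overlapped (log2 fold change −0.03; limma, Benjamini-Hochberg adjusted p 0.893). Glrb, the beta subunit that binds gephyrin, had 538 and 607 under control shRNA, against 629.6 and 635 under DcpS shRNA (log2 fold change 0.15; limma, Benjamini-Hochberg adjusted p 0.344). Glra1, Glra3 and Glra4 had at most 2 reads in any library. The rho subunit gene Gabrr3, known mainly from the retina, had 1 read in 1 library and 0 in the other 3, where a count of 0 allows up to 3 reads.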
